A study of Drosophila melanogaster with 6 samples.

Results

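The transcripts described here belong to 38 Drosophila melanogaster genes of DNA repair, DNA damage checkpoints and programmed cell death. They were chosen by name from knowledge of these pathways, with earlier results of these data known. A gene was measured where the array annotation gave a probe set (a group of short probes for 1 transcript) a single gene symbol matching its present or older name, and the probe set with the highest mean over the arrays stood for it. That held for 29 of the 38 genes, out of 11983 genes measured in this way and 18769 probe sets tested. The tested material was RNA of whole adult females of 2 stocks. Calment1/4 is a mutant in a stock called CS10, into which it had been isogenized, and CanS is the wild type Canton-S. There were 3 one-colour Affymetrix arrays of Calment1/4 and 3 of CanS, each from a pool of 30 to 35 frozen flies raised at 25 °C, titled as biological replicates. The age of the adults is not given in the labels. The mutation and the stock background differ together between the groups and cannot be told apart. The series is titled for longevity and oxidative stress resistance, and for these genes the comparison asks whether transcripts that serve genome repair or cell killing stand higher or lower in Calment1/4 than in Canton-S.

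In flies, damaged DNA is sensed by the kinases tefu (ATM) and mei-41 (ATR), which signal through the kinases lok (Chk2) and grp (Chk1) to stop the cell cycle, start repair and activate the transcription factor p53. The killer genes are rpr, hid, grim and skl, and p53 can turn on some of them. Their products remove the inhibitor Diap1 from the caspases, the proteases that take a cell apart. Most cells of an adult fly no longer divide, while the ovary of a female holds dividing and meiotic germ cells, where meiotic breaks are repaired and where the growing egg is loaded with maternal RNA.

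None of the 29 genes passed an adjusted p of 0.05 in limma, a linear model fitted to all tested probe sets with Benjamini-Hochberg adjustment over them, against 87 of the 18769 probe sets, or 0.464%. The lowest adjusted p of a member was 0.527, for mre11. The differences, Calment1/4 minus CanS on the log2 scale, ran from -0.22 for mre11 to 0.16 for Blm, with a median of 0.028 over the 29 genes and 0.00054 over all tested probe sets. Of the 29, 20 lay above 0, or 69.0%, against 50.2% of all probe sets, a share read here as a description only. At an unadjusted p under 0.05 there was 1 member, mre11, where 7.67% of all probe sets were. In 3 members, mre11, Strica and p53, the 3 Calment1/4 arrays did not overlap the 3 CanS arrays, and 12.6% of all probe sets had such groups.

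The interval of each gene gives a range for its own difference, with no adjustment for reading 29 of them together. Over the 29 genes the 95% intervals of limma reached no lower than -0.42 (Pms2) and no higher than 0.54 (Fancd2), which are a 1.33-fold lower and a 1.45-fold higher level in Calment1/4. The median distance from a member's difference to the end of its interval was 0.28. These values are deposited log2 summaries, and how they were made is not stated. If the arrays were brought to a common scale, a shift shared by most transcripts of a stock would not be seen in them.

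**Figure D1:**
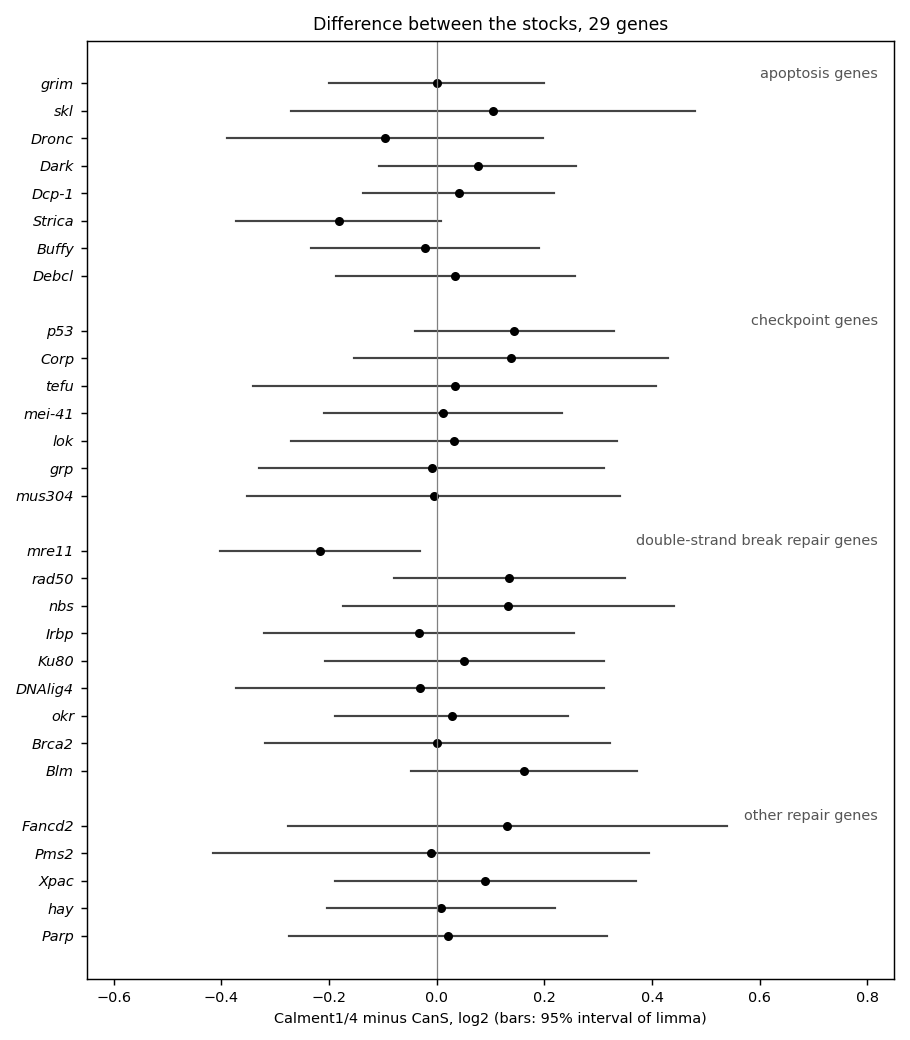
Difference between Calment1/4 and CanS for the 29 measured genes, grouped by role. Points are log2 differences and bars the 95% intervals of limma. The intervals of 28 genes include 0, and that of mre11 ends at -0.03.

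Among the genes that carry out apoptosis, 8 of 13 were measured and none passed. RefSeq places the killer genes together on arm 3L, with rpr directly between grim and skl and 4 protein-coding genes between hid and grim. Of these killer genes, grim and skl have a probe set of their own. The grim probe set read 3.04, 2.87 and 2.84 in Calment1/4 replicates 1 to 3, against 2.85, 2.94 and 2.96 in CanS. All 6 values lie under the 10th percentile of their array, which was 3.43 to 3.49, so grim was at the dim end of the scale in both stocks and a difference there could be compressed. The skl probe set read 5.12, 5.58 and 5.39 in Calment1/4, against 5.17, 5.04 and 5.58 in CanS. The stocks overlapped across nearly the whole range of skl, and the difference was 0.10 with an interval from -0.27 to 0.48.

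Downstream of the killer genes stand the initiator caspase Dronc, its activating scaffold Dark (the fly Apaf-1), the effector caspase Dcp-1 and the caspase Strica. Strica, which has a long prodomain and acts in part redundantly with Dronc in the ovary, was 7.996, 7.86 and 7.93 in Calment1/4, against 8.03, 8.19 and 8.11 in CanS. It averaged 7.93 ± 0.07 across the Calment1/4 arrays and 8.11 ± 0.08 across the CanS arrays (SD, n = 3 each), a difference of -0.18 (SE 0.08, adjusted p = 0.669 in limma). Every Calment1/4 array lay below every CanS array, but the closest arrays of the 2 stocks were within 0.04 of each other, and the difference did not pass. Dronc was 7.74, 8.15 and 8.16 in Calment1/4, against 8.12, 8.22 and 7.99 in CanS. Calment1/4 replicate 1 was the lowest of the 6 Dronc values, and the stocks overlapped (difference -0.10, adjusted p = 0.977 in limma). Dark was 7.58, 7.68 and 7.60 in Calment1/4, against 7.62, 7.497 and 7.503 in CanS, a difference of 0.076 (adjusted p = 0.948 in limma). A second, dimmer probe set of Dark differed by 0.017. Dcp-1 kept to a narrow band on all arrays, 7.90 to 7.99 in Calment1/4 and 7.83 to 7.94 in CanS.

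The Bcl-2 family is present in the fly with 2 members. Debcl promotes cell death and Buffy mostly opposes it. Debcl was 9.58, 9.83 and 9.87 in Calment1/4, against 9.73, 9.77 and 9.68 in CanS, and Buffy was 7.46, 7.43 and 7.25 in Calment1/4, against 7.33, 7.37 and 7.51 in CanS. In both the stocks overlapped, with differences of 0.034 for Debcl and -0.022 for Buffy. Neither gene passed. The killers rpr and hid, the inhibitor Diap1 and the caspases Drice and Decay have no probe set with 1 symbol in the annotation used here and were not analysed.

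All 7 genes of the damage checkpoint were measured, and none passed. p53 was 8.82, 8.90 and 8.99 in Calment1/4, against 8.72, 8.79 and 8.78 in CanS. The Calment1/4 arrays of p53 lay above those of CanS without overlap, averaging 8.91 ± 0.09 across Calment1/4 and 8.76 ± 0.04 across CanS (SD, n = 3 each), and the difference of 0.14 (SE 0.08, adjusted p = 0.797 in limma) is a 1.11-fold higher level. The gap between the nearest arrays was 0.03, and a second, dim probe set of p53 differed by -0.11. Corp, a p53 target that feeds back on p53 and is sometimes likened to mammalian Mdm2, was 6.90, 7.34 and 7.34 in Calment1/4, against 6.9998, 7.13 and 7.04 in CanS. Here Calment1/4 replicates 2 and 3 lay above the CanS arrays and Calment1/4 replicate 1 below them, giving a difference of 0.14 with an SE of 0.13 (adjusted p = 0.927 in limma).

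The kinases of the checkpoint differed less between the stocks than within them. tefu was 7.17, 7.55 and 7.66 in Calment1/4, against 7.71, 7.36 and 7.21 in CanS. Each stock covered about the same range, 0.49 in Calment1/4 and 0.51 in CanS, around a difference of 0.034. mei-41 was 6.55, 6.60 and 6.54 in Calment1/4, against 6.72, 6.40 and 6.53 in CanS, a difference of 0.012. mus304, the ATR-interacting protein that works with mei-41, was 6.98, 7.54 and 7.53 in Calment1/4, against 7.33, 7.46 and 7.27 in CanS. Its difference was -0.0059, while its Calment1/4 arrays alone covered 0.56. lok was 10.82, 11.19 and 11.29 in Calment1/4, against 11.12, 11.17 and 10.93 in CanS, and grp 11.35, 11.76 and 11.82 in Calment1/4, against 11.68, 11.79 and 11.48 in CanS. For lok and grp the lowest array was Calment1/4 replicate 1, followed by CanS replicate 3, and the differences were 0.033 and -0.0092. The other 2 probe sets of grp, which are dimmer, differed by 0.025 and -0.047.

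The genes of DNA break repair include the member with the largest difference. The complex of mre11, rad50 and nbs binds broken ends and trims them. mre11, its nuclease, was 9.01, 9.19 and 9.13 in Calment1/4, against 9.29, 9.35 and 9.34 in CanS. All Calment1/4 arrays of mre11 lay below all CanS arrays, by at least 0.10, averaging 9.11 ± 0.09 across Calment1/4 and 9.33 ± 0.04 across CanS (SD, n = 3 each). The difference was -0.22 (SE 0.08, interval -0.40 to -0.03), a 1.16-fold lower level in Calment1/4 with an unadjusted p of 0.0271 and an adjusted p of 0.527 in limma. Its partners lay to the other side of 0. rad50 was 9.09, 9.32 and 9.33 in Calment1/4, against 9.17, 9.13 and 9.04 in CanS, a difference of 0.13 (adjusted p = 0.877 in limma), and nbs was 8.51, 8.90 and 8.94 in Calment1/4, against 8.76, 8.72 and 8.48 in CanS, a difference of 0.13 (adjusted p = 0.943 in limma). In both partners Calment1/4 replicates 2 and 3 stood above the CanS arrays and replicate 1 among them.

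Broken ends are rejoined without a template by Irbp (Ku70), Ku80 and DNAlig4 (DNA ligase 4). Irbp was 7.66, 8.06 and 8.10 in Calment1/4, against 8.02, 8.04 and 7.87 in CanS. Ku80 was 7.07, 7.33 and 7.34 in Calment1/4, against 7.24, 7.32 and 7.02 in CanS. DNAlig4 was 7.10, 7.56 and 7.52 in Calment1/4, against 7.44, 7.63 and 7.22 in CanS. In all 3 genes Calment1/4 replicate 1 and CanS replicate 3 lay below the other 4 arrays, and the genes differed by -0.033, 0.051 and -0.031 between the stocks.

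Repair from a matching template involves Brca2, the motor protein okr (Rad54) and the helicase Blm. Brca2 was 7.46, 7.86 and 8.03 in Calment1/4, against 7.80, 7.84 and 7.70 in CanS, a difference of 0.0014 although its Calment1/4 arrays covered 0.56. okr was 7.48, 7.59 and 7.69 in Calment1/4, against 7.54, 7.68 and 7.45 in CanS. Blm was 4.80, 4.81 and 4.65 in Calment1/4, against 4.54, 4.72 and 4.51 in CanS. Blm had the largest positive difference among the members, 0.16 (SE 0.09, adjusted p = 0.805 in limma), and its groups overlapped.

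Of 8 genes in other repair routes 5 were measured, and none passed. Fancd2, of the pathway that clears DNA crosslinks, was 6.71, 7.26 and 7.44 in Calment1/4, against 7.04, 7.13 and 6.84 in CanS. Its Calment1/4 arrays covered 0.73, the widest range of any member within a stock, and the difference was 0.13 with an SE of 0.18 (adjusted p = 0.978 in limma). A second, dimmer Fancd2 probe set differed by 0.056. Pms2, a mismatch repair protein, was 7.17, 7.80 and 7.81 in Calment1/4, against 7.61, 7.77 and 7.43 in CanS, so that Calment1/4 replicate 1 stood 0.63 below its group mates. Xpac, which checks damage in nucleotide excision repair, was 7.31, 7.52 and 7.51 in Calment1/4, against 7.11, 7.53 and 7.43 in CanS, with CanS replicate 1 lowest. hay, a helicase of the transcription factor TFIIH that opens DNA for excision repair, covered 7.96 to 8.18 in Calment1/4 and 7.97 to 8.14 in CanS. Parp, named Parp1 in RefSeq, marks broken DNA with ADP-ribose chains, and its probe set was dim, 3.26 to 3.70 in Calment1/4 and 3.31 to 3.62 in CanS, under the 10th percentile on 3 arrays. The mismatch protein spel1, the excision nuclease mus201 and the photolyase phr have no probe set with 1 symbol here.

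**Figure D2:**
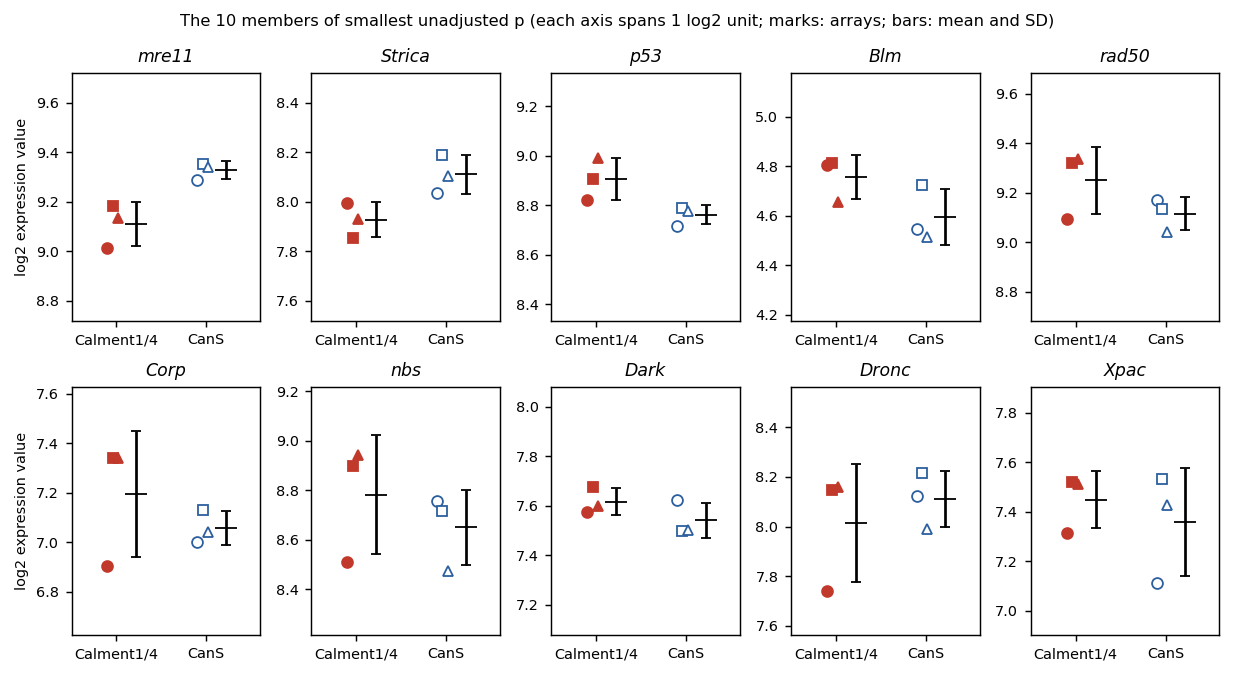
Log2 expression values of the 10 members with the smallest unadjusted p, Calment1/4 (filled) left of CanS (open), with circles, squares and triangles for replicates 1, 2 and 3 and bars for mean and SD. The groups do not overlap for mre11, Strica and p53, and Calment1/4 replicate 1 is the lowest of the 6 arrays for mre11, Corp and Dronc.

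The checkpoint and repair genes moved together from array to array within each stock. In 19 of the 21 measured checkpoint and repair genes Calment1/4 replicate 1 was the lowest Calment1/4 array, or 90.5%, against 36.3% of all tested probe sets. In 16 of the 21 CanS replicate 3 was the lowest CanS array, or 76.2%, against 38.1% of all probe sets. Both held together in 15 of the 21 genes, or 71.4%, against 21.8% of all probe sets. The exceptions for Calment1/4 replicate 1 were mei-41 and Blm. Around each gene's mean over the 6 arrays, the median of the 21 genes was -0.21, 0.11 and 0.16 in Calment1/4 replicates 1 to 3, against 0.02, 0.08 and -0.14 in CanS.

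The apoptosis genes kept closer together. Their median around each gene's mean was -0.02, 0.06 and 0.04 in Calment1/4, against 0.00019, 0.02 and -0.01 in CanS. Calment1/4 replicate 1 was lowest of its group in 5 of 8 and CanS replicate 3 in 3 of 8. The median SD within a stock was 0.10 for the 8 apoptosis genes and 0.19 for the 21 checkpoint and repair genes, against 0.12 for all tested probe sets. In Dronc, Calment1/4 replicate 1 lay 0.41 below its group mates and CanS replicate 3 lay 0.18 below its own. The widest spread among the apoptosis genes was that of skl (SD within a stock 0.26), with CanS replicate 3 its highest CanS array.

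**Figure D3:**
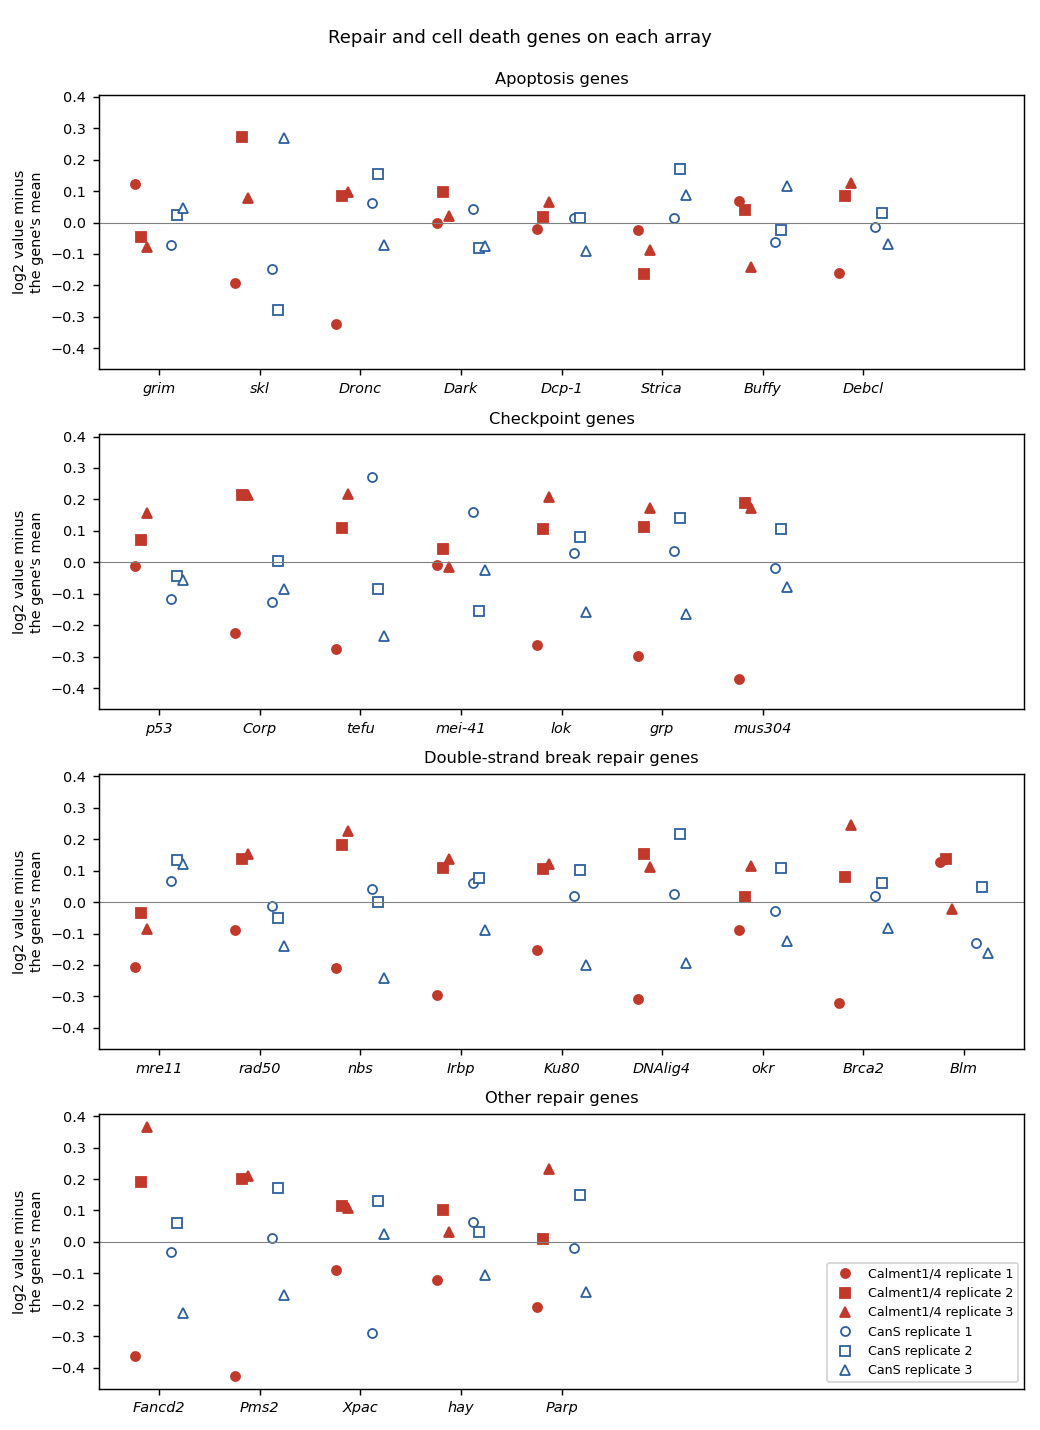
Log2 values of the 29 genes on each array, as the distance from the gene's own mean over 6 arrays, with Calment1/4 (filled) left of CanS (open) and 1 panel for each role. The filled circles of Calment1/4 replicate 1 lie lowest of the filled marks in 19 of 21 checkpoint and repair genes and in 5 of 8 apoptosis genes.

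The same 2 arrays were low on markers of the ovary. Around each gene's mean, the 23 measured of 28 female germline markers had medians of -0.22, 0.10 and 0.22 in Calment1/4, against 0.08, 0.08 and -0.19 in CanS, and the 20 measured of 23 yolk and eggshell genes -0.39, 0.35 and 0.29 in Calment1/4, against 0.26, 0.11 and -0.66 in CanS. The germline marker osk, for example, was 12.36, 12.62 and 12.70 in Calment1/4, against 12.47, 12.44 and 12.09 in CanS. The medians of gut markers ran to the other side, for 11 of 14 genes -0.02, -0.33 and -0.28 in Calment1/4, against 0.02, 0.17 and 0.37 in CanS. In 3 of the 11 genes Calment1/4 replicate 1 was still the lowest Calment1/4 array. The haemocyte and muscle lists were also higher in Calment1/4 replicate 1 than in its mates, while the head and nerve list was not. Haemocyte medians were 0.03, -0.23 and -0.22 in Calment1/4, against 0.27, 0.01 and 0.08 in CanS. Muscle medians were 0.05, -0.08 and -0.24 in Calment1/4, against 0.20, -0.21 and 0.27 in CanS. Head and nerve medians were 0.09, 0.12 and 0.01 in Calment1/4, against 0.13, -0.24 and -0.07 in CanS. There Calment1/4 replicate 1 lay between its mates, as did CanS replicate 3. In whole flies, fewer cells of a type and less RNA per cell cannot be told apart. The part of ovary RNA in the profile of the repair genes was not tested. A fit with the germline median as a covariate, given below, cannot decide it.

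The label of whole adult females was checked against markers. The yolk protein gene Yp1 was 13.93 to 14.01 in Calment1/4 and 13.98 to 14.08 in CanS. Testis and male accessory gland markers had a median of 3.60 to 3.70 in Calment1/4 and 3.62 to 3.67 in CanS over 23 genes, near the 10th percentile of the arrays. Pairs of arrays had correlations of 0.991 to 0.998 over all tested probe sets. Calment1/4 replicate 1 correlated most with CanS replicate 3 (0.99487), above its own group mates, replicates 2 (0.99422) and 3 (0.99355).

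**Figure D4:**
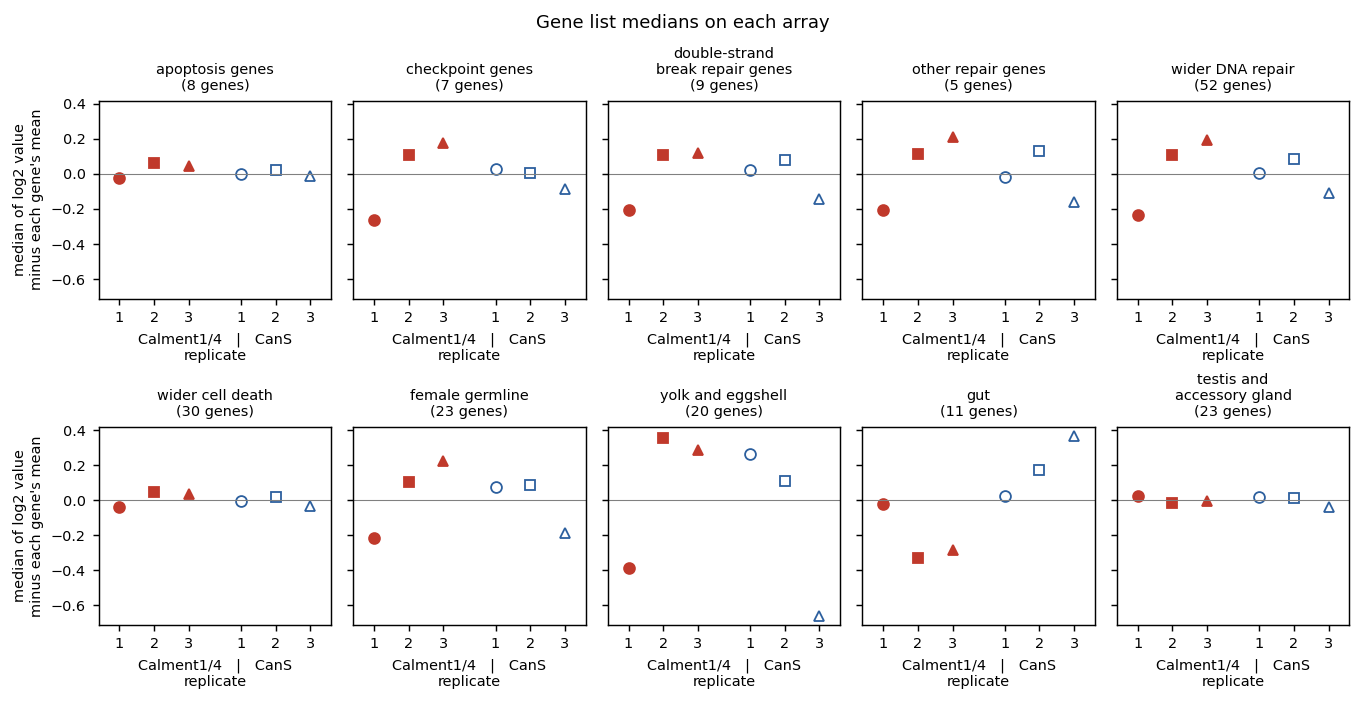
Median, over the genes of each list, of the log2 value minus the gene's mean over 6 arrays, for replicates 1 to 3 of Calment1/4 (filled, left) and CanS (open, right). The checkpoint, repair, germline and eggshell lists are lowest in Calment1/4 replicate 1 or CanS replicate 3, the apoptosis and wider cell death lists stay between -0.04 and 0.06, and the gut list is highest in CanS replicate 3.

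The result for the members was computed again with these arrays left out or modelled. Without Calment1/4 replicate 1, 281 probe sets passed, or 1.5%, and still none of the 29 members (lowest adjusted p = 0.198 in limma, for Corp). The median difference of the members was then 0.14 and 25 of 29 lay above 0. Over all probe sets the median was -0.00025, and 9370 of the 18769 lay above 0. Calment1/4 replicate 1 was the lowest Calment1/4 array in 24 of the 29 members, so leaving it out necessarily raises their differences. Without Calment1/4 replicate 1 and CanS replicate 3 together, 228 probe sets passed, or 1.21%, and again no member (lowest adjusted p = 0.198 in limma, for skl). The median difference of the members in that fit was 0.071, against -0.0031 over all probe sets. With the germline marker median of each array as a covariate the median SE of the 29 members was 0.072, where it is 0.12 without it. Over all tested probe sets the median SE was 0.081 with the covariate and 0.0998 without it. The covariate was low on the same 2 arrays as the checkpoint and repair genes, so a fall in their SE is no test of a part of ovary RNA. In the fit with the covariate 311 probe sets passed, or 1.66%, and no member (lowest adjusted p = 0.242 in limma, for mre11). The median difference of the members was 0.0054, and 15 of 29 lay above 0, as did 9227 of the 18769 probe sets. The last 2 fits were chosen after the values had been seen.

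Genes of the same pathways beyond the 38 were read from a wider list of 101 names, 82 of them measured. None of the 82 passed (lowest adjusted p = 0.507), their median difference was 0.018, and 3 had an unadjusted p under 0.05, or 3.66%, against the 7.67% of all probe sets. Among 52 further DNA repair genes the smallest p values among negative differences belonged to XRCC1, a scaffold of single-strand break repair, at -0.32 (SE 0.12, adjusted p = 0.507 in limma). Among positive differences the smallest p values were those of Rtel1, a helicase, at 0.29 and agt, which removes alkyl groups from guanine, at 0.16. Like the members, these 52 genes were lowest in Calment1/4 replicate 1 within its group in 48 cases and in CanS replicate 3 in 36. Their medians around each gene's mean were -0.23, 0.11 and 0.19 in Calment1/4, against 0.01, 0.08 and -0.11 in CanS.

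Among 30 further cell death genes the smallest p value of a negative difference was that of HtrA2, a mitochondrial protease, at -0.23 (SE 0.09, adjusted p = 0.527 in limma), and that of a positive one belonged to Mkk4, a kinase upstream of JNK, at 0.21 (SE 0.09, adjusted p = 0.632 in limma). HtrA2 was 5.94, 5.88 and 6.09 in Calment1/4, against 6.13, 6.24 and 6.23 in CanS, and Mkk4 was 9.25, 9.07 and 9.08 in Calment1/4, against 8.84, 8.94 and 8.99 in CanS. In both the groups did not overlap, although neither passed. Groups without overlap were found in 4 of the 30 genes, and in 12.6% of all probe sets.

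The widest spread in the wider cell death list was that of Damm, a caspase with a short prodomain. Damm was 10.02, 8.11 and 8.06 in Calment1/4, against 9.20, 9.42 and 10.11 in CanS. Calment1/4 replicates 2 and 3 lay over 1 log2 unit below every CanS array, and Calment1/4 replicate 1 lay among the CanS arrays. With all 6 arrays the difference was -0.85 with an SE of 0.49 (adjusted p = 0.813 in limma). With Calment1/4 replicate 1 left out it passed (-1.50, adjusted p = 0.0209 in limma), as it did with CanS replicate 3 left out too (-1.23, adjusted p = 0.00328). Leaving out the Calment1/4 array that lay among the CanS arrays necessarily widens the difference. Damm did not pass with any other single array left out. The difference was -0.54 and -0.52 without Calment1/4 replicates 2 and 3, and -0.59 without CanS replicate 3. It also did not pass in the fit with the germline covariate (-0.66, adjusted p = 0.149 in limma) or with array weights (-1.31, adjusted p = 0.107 in limma). In each of the 2 fits in which it passed, Damm was the 1 call among the 82 genes of the wider list. Of all probe sets, 1.5% and 1.21% passed in these fits. The Damm values were highest in CanS replicate 3 and Calment1/4 replicate 1, the arrays in which the median of the checkpoint and repair genes was lowest. The gut marker medians given above were likewise lowest in Calment1/4 replicates 2 and 3 and highest in CanS replicate 3. This was not particular to gut, as haemocyte medians were also lowest in Calment1/4 replicates 2 and 3. The muscle median was also highest in CanS replicate 3.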

How the data were processed

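The authors deposited 1 log2 expression value for each probe set on each array. Their tools are listed in the submitters' processing notes as affy 1.36.0, RMA and MAS5, with no role, so how the log2 values were made is not stated in the sources used here. Of 18952 probe sets, 183 AFFX controls were left out. Names came from the platform annotation, updated by gene identifier to RefSeq (Release 6 plus ISO1 MT), with 13647 probe sets of 1 symbol, 402 of several and 4720 of none. An item among the members is not reported here. Scanner files were not used, so detection was not judged.

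All 6 arrays entered limma 3.58.1 in R 4.3.3 (lmFit, eBayes, genotype only, two-sided), with Benjamini-Hochberg adjustment over 18769 probe sets and a threshold of 0.05. Intervals are limma's at 95%. All members were to be named, with values of each array for the 10 of smallest p and those that open a role, and from the wider list the genes past the threshold or else those of smallest p in each direction. The members and lists were chosen with earlier results of these data known. Alternatives were repeated quantile normalization, median centring, leaving out the dimmest 33.3% of probe sets, trend and robust eBayes, array weights, a replicate block, a threshold of 0.01, other choices of probe set and leaving out each array. In 20 simulations over 18769 probe sets, 200 of them changed, the fit recovered 40.8% of changes of 0.5, 87.9% of changes of 1 and 98.6% of changes of 2 on the log2 scale, and 3.79% of its calls were false. The changed probe sets were drawn from all, with independent noise in each. The median SD within a stock was 0.175 for the 29 members and 0.123 for all, so recovery of the members could be lower. The number of arrays limits the precision. Figures used matplotlib 3.10.9.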

Additional observations from a re-analysis of the deposited data

How the results depend on the processing

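No member passed the threshold under any of 17 alternatives, in 491 recomputed values. In 9 of 29 members the sign was the same under all of them, mre11 and Strica below 0 and p53, Blm, rad50, nbs, Corp, Dark and Dcp-1 above, and in the other 20 members it changed at least once, never with a call. Some alternatives could not change a sign, because they leave each difference as in the main fit. These are trend and robust eBayes, the replicate block, the filter on dim probe sets and the threshold of 0.01. The stricter threshold could not add a call either. The filter on dim probe sets left out 2 members, grim and Parp. Leaving out single arrays gave median differences of -0.03 to 0.14 for all members, -0.0029 to 0.052 for apoptosis, -0.06 to 0.18 for checkpoint, -0.04 to 0.14 for break repair, -0.04 to 0.16 for other repair genes and -0.04 to 0.12 for the wider list, each highest without Calment1/4 replicate 1, with 0 to 1 calls in the wider list. Without Calment1/4 replicate 1 and CanS replicate 3 together 1 of the 82 measured genes of the wider list, Damm, passed. In that fit 1.21% of all probe sets passed. The count over all probe sets, 87, was 38 to 281 when single arrays were left out (281 without Calment1/4 replicate 1, 38 and 45 without Calment1/4 replicates 2 and 3), 228 without both arrays, 337 with array weights, 311 with the germline covariate and 38 at the threshold of 0.01. With the replicate number as a replicate block it was 30, and no member passed. Same-numbered arrays did not deviate together (r = -0.29, 0.20 and -0.43 for numbers 1 to 3), so the numbers were not taken as pairs. The cause of these changes was not tested. Dim probe sets limit what can be said of grim and Parp.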
